A study of Schizosaccharomyces pombe with 10 samples.

Results

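Low phosphate was compared with high phosphate in 6 of the 10 chromatin immunoprecipitation sequencing libraries of the series, those of the Myo1-GFP strain of fission yeast (Schizosaccharomyces pombe), in which the class I myosin Myo1 carries green fluorescent protein. The 6 libraries were chosen by their labels, 3 in low phosphate and 3 in high phosphate, and every 200 bp window on chromosomes I, II and III was used. In low phosphate, log-phase cells were washed and kept for 4 h at 30°C in YES LowPi, a rich yeast extract medium low in phosphate. In high phosphate they were kept for the same time in YES, the ordinary rich medium. All cultures were then set to 0.5 OD per ml and fixed in 3% formaldehyde for 30 min, and sheared chromatin was put on GFP-Trap beads, which bind green fluorescent protein. The other 4 libraries, called NoIP and labelled wild type, numbered 2 in low phosphate and 2 in high phosphate. They are set beside the Myo1-GFP libraries as the background measured in the same medium. The labels give the bead step for them too, so it cannot be told apart whether NoIP means untagged cells on beads or chromatin without beads. Nothing in the labels says that replicates were separate cultures, so p-values measure only the spread between these libraries.

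Phosphate is taken up by fission yeast through plasma membrane transporters and freed from organic molecules by the secreted acid phosphatase Pho1, and the transcription factor Pho7 turns these genes on when phosphate runs short. Starved cells also stop dividing, recycle their own components and rebuild metabolism around storage. Myo1 is a motor of the endocytic actin patch at the plasma membrane, where it helps to push newly formed vesicles inwards. The Myo1-GFP libraries address whether this myosin is found at chromatin and whether its distribution moves with phosphate.

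Each value below is a level on the log2 scale relative to the median window of the same library, so that 0 is the typical window of the genome and a difference of 1 is a 2-fold change. Levels were averaged over the windows carrying the same gene label, which gave 6073 genes with a median of 17 windows each. Taking the smallest increment in a library's values as a single read, the median window held 311, 199 and 11 reads in low phosphate, against 103, 227 and 8 reads in high phosphate, and 64 to 271 in NoIP. Summed over all windows, which overlap so that a read can be counted more than once, the Myo1-GFP libraries came to 43.8, 28.4 and 1.80 M reads in low phosphate, against 15.0, 31.6 and 1.42 M reads in high phosphate. The third replicate was therefore shallow in both conditions. The main counts are given for all 10 libraries and for the 8 deeper libraries that leave both out. Many values for single genes and lists are given for 1 of these fits only. The 2 deeper low phosphate libraries were alike (Pearson r = 0.98 across genes), and the 2 deeper high phosphate libraries less so (r = 0.85). They were about as close to NoIP of the same medium, with r = 0.96 to 0.98 in low phosphate and 0.86 to 0.95 in high phosphate. Low phosphate replicate 3 correlated with its own group (r = 0.53 and 0.54) hardly more than with the high phosphate libraries (r = 0.50 to 0.53), as a description across genes that share libraries and depth. No pair of replicates agreed within counting error, the closest being low phosphate replicates 1 and 2 at 1.76 times that error over 2446 genes with at least 20 windows. Per window this pair differed by only 1.09 times counting error, the lowest of any pair. These are the only low phosphate Myo1-GFP libraries in the deeper fit. One high phosphate library also stood apart at ura4, a uracil synthesis gene often removed as a marker. There high phosphate replicate 2 held 51.5% of its median window, while the other 9 libraries held between 0.00894% and 8.34%. Counts that lead the text are therefore also given without it.

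Along the average protein-coding gene, windows just before the start were higher in low phosphate in the deeper libraries, and windows 300 to 500 bp inside were lower. Upstream levels were taken from the windows nearest to 100, 200 and 300 bp before the annotated start. Inside levels came from those nearest to 300, 400 and 500 bp after it. Over 4718 protein-coding genes, mean upstream minus inside was 0.18, 0.11 and -0.04 in low phosphate, against -0.23, -0.05 and -0.18 in high phosphate. The groups did not overlap, but low phosphate replicate 3 lay only just above high phosphate replicate 2, and its profile around the start was nearly flat. The means were 0.09 ± 0.11 in low phosphate and -0.15 ± 0.09 in high phosphate (SD, n = 3 each), a difference of 0.23 with an exact two-sided permutation p = 0.1, the smallest that 3 against 3 allows. The difference was 0.28 between the deeper libraries. For the upstream level alone the groups overlapped (exact two-sided permutation p = 0.2). By position, low minus high phosphate peaked 200 bp before the start, at 0.16 in all libraries and 0.22 in the deeper ones. In all libraries it was still 0.11 at the start itself and was -0.10 at 400 bp inside the gene. The NoIP libraries had the same shape, with 0.26 at 200 bp before the start and -0.12 at 400 bp inside, and upstream minus inside levels of 0.23 and 0.26 in low phosphate against -0.14 and -0.08 in high phosphate. Around the gene end the deeper libraries were higher in low phosphate by 0.16 at 100 bp past it, and NoIP by 0.16. Over the 2417 genes with no other protein-coding gene within 500 bp upstream, the difference in upstream minus inside levels was 0.28.

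**Figure D1:**
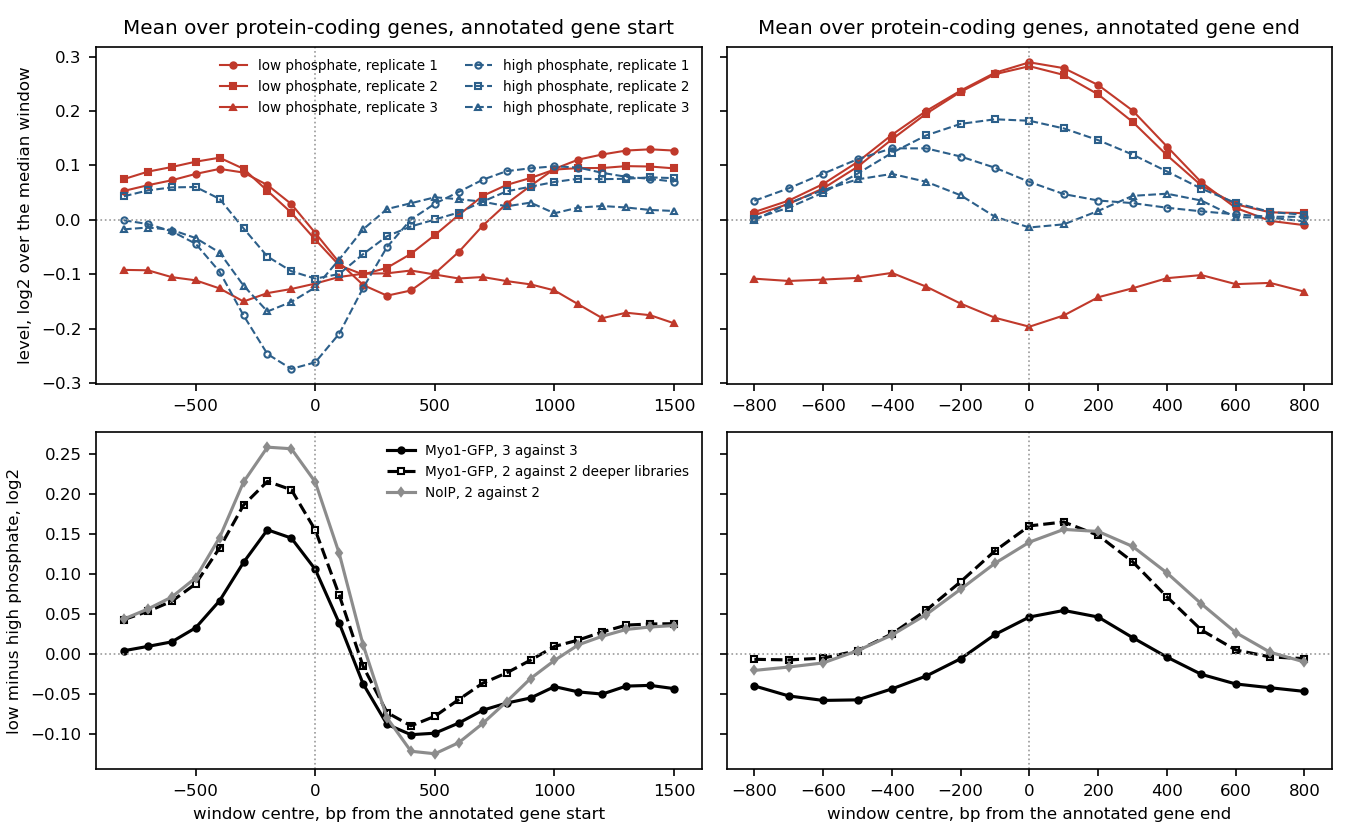
Mean level over protein-coding genes (log2 over the median window) against distance in bp from the annotated gene start (left) and gene end (right). The upper panels show each Myo1-GFP library, low phosphate as red filled symbols and high phosphate as blue open symbols. The lower panels show low minus high phosphate in Myo1-GFP for all 6 and for the 4 deeper libraries, and in NoIP. The difference peaks 200 bp before the start at 0.16 over all 6, 0.22 over the 4 deeper libraries and 0.26 in NoIP.

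The windows nearest to 100, 200 and 300 bp before the start, centred at -349.5 to -50.5 bp from it, were then averaged per gene and tested, a measure added after the profile had been seen. In the fit of all 10 libraries (limma, Benjamini-Hochberg adjusted p under 0.05), 106 of 4718 genes (2.25%) were higher in low phosphate and 0 were lower, with 59 lower at an unadjusted p under 0.05. The 106 changes ran from 0.69 to 2.02 with a median of 1.07, and in all 106 the 3 low phosphate libraries lay above the 3 high phosphate ones. By that second measure alone, upstream windows did not overlap between the groups for 15.8% of genes in the higher direction and 4.43% in the lower direction. The 106 were called from the same libraries, so their non-overlap is no separate evidence. In the 8 deeper libraries 898 genes were higher (19%) and 4 were lower (0.0848%), 19.1% in either direction, and the 106 were all among those called. With the replicate numbers as a block, 0 genes passed in the 10-library fit (lowest adjusted p = 0.0511, limma). Leaving out 1 library gave between 9 genes (without high phosphate replicate 1) and 375 (without low phosphate replicate 3). It was 15 and 31 without low phosphate replicates 1 and 2, 57 without high phosphate replicate 2, 161 without high phosphate replicate 3 and 36 or 37 without 1 NoIP library. In the deeper fit the count without high phosphate replicate 2 was 1122 higher and 7 lower. Leaving out each of the 8 deeper libraries in turn gave totals between 446, again without high phosphate replicate 1, and 1179, without either NoIP high phosphate library, with 470 and 499 without low phosphate replicates 1 and 2. All 106 upstream levels were also higher in low phosphate in NoIP. In NoIP the deeper fit had 1099 genes higher (23.3%) and 20 lower (0.424%), 23.7% in either direction, and the 10-library fit 19 higher (0.403%). The same 4 NoIP libraries, with the same changes, are in both fits. For NoIP the fits differ only in the estimate of spread, shared with the Myo1-GFP libraries. In limma 0 genes passed the test of the difference between the 2 kinds of library (12 at an unadjusted p under 0.05 in the 10-library fit and 60 in the deeper fit, limma). The count past adjustment was 41 when NoIP high phosphate replicate 2 was left out of the deeper fit.

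Over the 10 largest upstream gains of the 10-library fit the change ran from 1.54 at ddx27 to 2.02 at SPCC417.16, with din1, oca2, fip1, mrs3, sfp1, SPAC17A2.10c, srk1 and pil1 between. Upstream of pil1, the core protein of eisosomes, the furrows of the plasma membrane, levels were 1.18, 0.84 and 1.73 in low phosphate, against -0.27, -0.37 and -1.56 in high phosphate. The change was 1.98 ± 0.34 (SE, adjusted p = 0.018, limma), and every low phosphate library lay well above every high phosphate one. The pil1 gene itself, III 348559 to 351165, had levels of 1.44, 1.41 and 1.0 in low phosphate, against 0.93, 0.79 and 0.20 in high phosphate, a difference of 0.56 in the deeper fit (adjusted p = 0.0497, limma). Upstream of srk1, a kinase activated by the stress-responsive MAP kinase, levels were 0.79, 0.57 and 1.90 in low phosphate, against -0.52, -0.23 and -1.23 in high phosphate. The change was 1.74 ± 0.34 (SE, adjusted p = 0.031, limma), and here the shallow replicate was the most extreme in both groups. Over the srk1 gene body the difference of 0.21 in the deeper fit did not pass (adjusted p = 0.40, limma). Upstream of sfp1, a predicted transcription factor, levels were 1.40, 1.34 and 1.35 in low phosphate, against -0.19, -0.26 and -0.50 in high phosphate, the tightest of these gains (1.68 ± 0.19, SE, adjusted p = 0.0058, limma). In NoIP every one of these 3 upstream windows was also higher in low phosphate. The NoIP values for pil1 were 1.29 and 1.22 in low phosphate against 0.32 and 0.01 in high phosphate.

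The 300 bases before the annotated start of these 3 genes, and of gpd1, hsp90 and ssa2, whose gene bodies are described below, are shown because they cover most of the upstream windows, which are 200 bp long and can reach beyond the bases shown at either end. They were read from the ASM294v3 RefSeq genome on the strand of the gene, and capitals mark every match, on either strand, to 4 short motifs whose letters are spelled out after the sequences. These were the cores of the cAMP response element and of the heat shock element, a GATA-type motif and a TATA-type motif. A match is a description of the letters and not a binding site, and neighbouring capitals can belong to overlapping matches.
pil1, chrIII:348259-348558, plus strand: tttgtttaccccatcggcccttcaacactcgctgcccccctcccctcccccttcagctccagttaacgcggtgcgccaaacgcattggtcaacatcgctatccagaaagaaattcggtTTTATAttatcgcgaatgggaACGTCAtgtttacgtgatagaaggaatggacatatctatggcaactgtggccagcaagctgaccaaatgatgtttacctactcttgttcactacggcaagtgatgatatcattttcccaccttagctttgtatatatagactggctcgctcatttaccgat
srk1, chrIII:1301637-1301936, plus strand: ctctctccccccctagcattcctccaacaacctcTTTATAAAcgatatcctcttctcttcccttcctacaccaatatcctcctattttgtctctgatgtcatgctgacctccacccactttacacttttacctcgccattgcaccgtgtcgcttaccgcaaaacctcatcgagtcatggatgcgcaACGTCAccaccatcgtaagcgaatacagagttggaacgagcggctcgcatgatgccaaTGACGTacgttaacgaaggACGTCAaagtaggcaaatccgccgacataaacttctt
sfp1, chrI:4434514-4434813, minus strand: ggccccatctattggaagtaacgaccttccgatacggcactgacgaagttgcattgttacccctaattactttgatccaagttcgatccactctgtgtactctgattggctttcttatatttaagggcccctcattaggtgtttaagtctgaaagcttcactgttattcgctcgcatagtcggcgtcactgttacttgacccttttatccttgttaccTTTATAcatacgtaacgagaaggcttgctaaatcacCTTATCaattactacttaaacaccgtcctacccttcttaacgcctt
gpd1, chrII:4035266-4035565, plus strand: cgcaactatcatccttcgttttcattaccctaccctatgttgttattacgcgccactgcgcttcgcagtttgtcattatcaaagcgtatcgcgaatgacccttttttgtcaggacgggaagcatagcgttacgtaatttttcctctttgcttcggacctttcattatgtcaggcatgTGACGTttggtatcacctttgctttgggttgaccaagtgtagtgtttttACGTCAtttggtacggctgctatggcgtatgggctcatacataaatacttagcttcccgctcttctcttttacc
hsp90, chrI:3891140-3891439, minus strand: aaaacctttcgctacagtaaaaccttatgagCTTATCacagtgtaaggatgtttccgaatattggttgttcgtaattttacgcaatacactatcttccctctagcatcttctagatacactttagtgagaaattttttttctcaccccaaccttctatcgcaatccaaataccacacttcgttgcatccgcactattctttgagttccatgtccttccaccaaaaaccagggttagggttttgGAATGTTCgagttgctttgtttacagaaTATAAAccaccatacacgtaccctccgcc
ssa2, chrIII:2056743-2057042, plus strand: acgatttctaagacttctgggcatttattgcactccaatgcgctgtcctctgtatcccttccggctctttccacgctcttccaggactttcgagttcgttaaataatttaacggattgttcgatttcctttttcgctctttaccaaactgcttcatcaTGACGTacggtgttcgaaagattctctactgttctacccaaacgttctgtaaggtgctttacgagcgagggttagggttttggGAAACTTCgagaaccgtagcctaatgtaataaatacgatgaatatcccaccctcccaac

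In these 300 bases srk1 held TGACGT, the core of the element that Atf1-type factors bind, 3 times, 114, 56 and 37 bp before the start, gpd1 held it 2 times and pil1 and ssa2 1 time each. The heat shock core, searched as GAANNTTC, occurred as GAATGTTC 57 bp before hsp90 and as GAAACTTC 59 bp before ssa2. GATAAG, the letters that GATA factors bind, was matched in sfp1 and hsp90, and TATAAA in pil1, srk1, sfp1 and hsp90. Over the same 300 bp of 4717 genes, TGACGT was present in 5.91% of all genes, 8.69% of the 898 genes with higher upstream windows and 17.0% of the 106. GATAAG was present in 12%, 14.3% and 23.6% of the same sets. The heat shock core ran the other way, with 11.3%, 8.02% and 5.66%, and TATAAA was found in 51.3%, 47.7% and 45.3%. These shares are descriptions and were not tested.

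**Figure D2:**
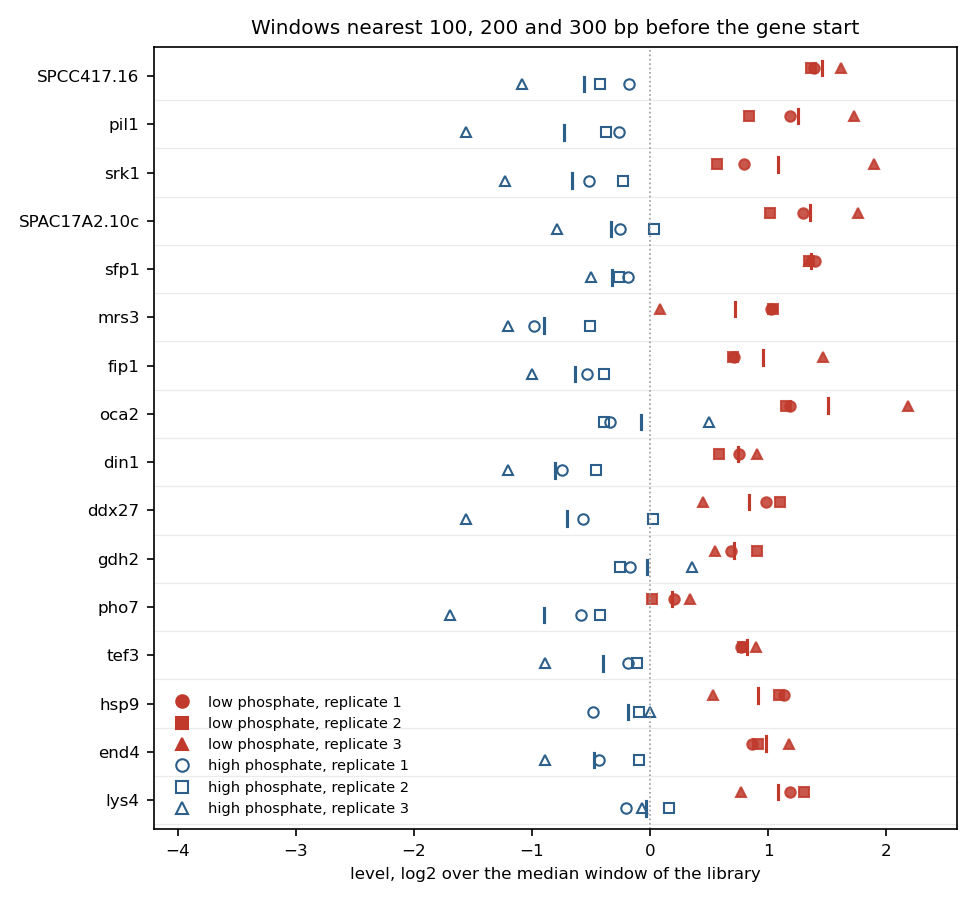
Level of the windows nearest to 100, 200 and 300 bp before the start (log2 over the median window) of 16 genes, low phosphate in red and high phosphate in blue, with 1 symbol per replicate and a bar at each group mean. The first 10 are the largest changes of the 10-library fit and the last 6 were chosen after their values were seen. Of these 6, gdh2 and pho7 passed only in the deeper fit. The low and high phosphate libraries do not overlap in any of the 16, and the triangles of the shallow replicate 3 often lie farthest out.

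Other genes called upstream in the 10-library fit are described here, chosen after their values were seen. Upstream of end4, which links the endocytic coat to actin, levels were 0.86, 0.92 and 1.18 in low phosphate, against -0.43, -0.09 and -0.89 in high phosphate (1.46 ± 0.21, SE, adjusted p = 0.013, limma). Upstream of gaf1, a GATA-type transcription factor of nitrogen metabolism, levels were 0.92, 1.02 and 0.76 in low phosphate, against -0.54, -0.35 and -0.70 in high phosphate (1.42 ± 0.16, SE, adjusted p = 0.0058, limma). The translation factor gene tef3, the lysine synthesis gene lys4, the small heat shock gene hsp9 and the sexual differentiation factor ste11 rose upstream by 1.21, 1.12, 1.11 and 0.86. Upstream of pho7, the phosphate regulator itself, levels were 0.20, 0.02 and 0.34 in low phosphate, against -0.59, -0.42 and -1.70 in high phosphate. The groups did not overlap, but the change of 1.09 ± 0.30 did not pass over 10 libraries (SE, adjusted p = 0.099, limma), while that of 0.62 in the deeper fit did (adjusted p = 0.0074, limma). Over the pho7 gene body the 10-library difference was 0.05.

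Of the 898 genes with higher upstream windows in the deeper fit, 103 also had a higher gene body (11.5% beside 3.37% of the 4718 genes) and 3 had a lower one, namely ssa2, tam14 and SPCC569.05c. Of the 159 genes with a higher body, 64.8% had higher upstream windows, beside 19% of all. The 2 measures are not separate. Upstream windows can reach into the gene, and a window that touches the gene can carry its label and count in both. The median upstream change of the 898 was 0.73, while their median gene body change was 0.10, above 0 in 684 and below 0 in 214. The small gene tam14, at III 114921 to 115256, neighbours ura4, which starts at 115589, and its body level of 0.02 in high phosphate replicate 2 stood above -0.16 and -0.17 in the other high phosphate libraries.

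Averaged over whole genes, few passed with all libraries. In the 10-library fit 8 of 6073 genes (0.132%) were higher in low phosphate and 0 were lower, against 433 higher and 192 lower at an unadjusted p under 0.05 (limma). In the 8 deeper libraries 350 genes were higher (5.76%) and 21 were lower (0.346%), 6.11% in either direction, with median changes of 0.60 and -0.46. Over all 6 Myo1-GFP libraries the groups did not overlap for 163 of those 350 and 14 of those 21, against 9.25% of all genes in the higher direction and 8.22% in the lower direction. The deeper of these libraries made the calls, so this non-overlap is no separate evidence. With the replicate block, 0 genes passed over 10 libraries (lowest adjusted p = 0.0865) and 557 higher and 41 lower over the 8 deeper ones. Leaving out 1 of the deeper libraries leaves 1 in its group and changes the estimate of spread that all groups share. The deeper count depended on which library was left out. It was 0 without high phosphate replicate 1, 0 without low phosphate replicate 2 and 2 without low phosphate replicate 1, and 583 and 589 in all without NoIP high phosphate replicates 1 and 2, while without the ura4-bearing high phosphate replicate 2 it was 295 higher and 14 lower, with all 8 genes still called. In the 10-library fit 5 genes passed without that library, 4 of them among the 8. Centring each library by quantiles instead of the median made the deeper split 258 higher and 50 lower.

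The 8 genes were mostly short non-coding or dubious labels, and most sat at or near the start of a neighbouring protein-coding gene. SPNCRNA.1132, an antisense RNA at III 342960 to 346745, held levels of 1.08, 1.14 and 1.16 in low phosphate, against -0.56, -0.29 and -0.46 in high phosphate. This was the largest change (1.57 ± 0.12, SE, adjusted p = 0.0017, limma), 2.96-fold, and the 3 low phosphate values were nearly equal whatever the depth. Its adjusted p ran from 2.0e-05 to 0.095 over the alternatives. Its 5 labelled windows ran from 346301 to 346900, centred at -2158 to -1758 bp from the start of pil1. The dubious frame SPAC19D5.10c had levels of 0.70, 0.51 and 0.81 in low phosphate, against -0.77, -0.43 and -1.26 in high phosphate (1.50 ± 0.19, SE, adjusted p = 0.026, limma). Its windows were centred at -306 to -6 bp from the start of din1, whose product acts with the Dhp1 exonuclease in RNA turnover. The windows of SPNCRNA.332 were centred at -359 to -59 bp from the start of erg1, the squalene monooxygenase of sterol synthesis, and those of SPNCRNA.155 at -1047 to -147 bp from the start of erg11, a sterol demethylase of the same pathway. The dubious frame SPAC24B11.14 adjoined the start of hem3, an enzyme of haem synthesis. SPNCRNA.332, SPNCRNA.155 and SPAC24B11.14 rose by 1.24, 0.76 and 1.13, with all low phosphate libraries above all high phosphate ones. The upstream windows of erg1, erg11, hem3 and din1 were themselves called in the 10-library fit (1.30, 1.31, 1.37 and 1.55), from overlapping windows and so not as separate evidence.

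The remaining 3 were SPNCRNA.1318, rgp1 and SPAC57A7.05. SPNCRNA.1318, an antisense RNA whose 10 windows lay over the first part of the hexose transporter gene ght4, rose by 1.06. Rgp1, a predicted subunit of a Golgi exchange factor, had levels of 0.70, 0.57 and 0.95 in low phosphate, against -0.26, -0.18 and -0.08 in high phosphate, and rose by 0.92. SPAC57A7.05, a conserved protein with 73 windows at I 1534352 to 1540872, had levels of 0.77, 0.70 and 0.53 in low phosphate, against -0.12, -0.06 and -0.28 in high phosphate, and rose by 0.82 ± 0.11 (SE, adjusted p = 0.026, limma). It was the widest of the 8, and both groups were compact. By the same naming rule the deeper fit added gdh2 and the sequence orphan SPAC27E2.11c.

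Among the genes added from the deeper fit was gdh2, the NAD-dependent glutamate dehydrogenase that breaks glutamate down to ammonium and a Krebs cycle acid. It had levels of 1.33, 1.51 and 0.38 in low phosphate, against -0.07, -0.14 and -0.44 in high phosphate. Along its 36 windows the deeper low phosphate libraries ran above the deeper high phosphate ones, and the mean of the shallow low phosphate library, much lower than the other two, was still above all high phosphate means. The change was 1.53 ± 0.13 in the deeper fit (SE, adjusted p = 0.0056, limma), 2.88-fold, and 1.29 ± 0.27 over 10 libraries (adjusted p = 0.11). In NoIP, gdh2 held 1.67 and 1.43 in low phosphate against 0.19 and -0.03 in high phosphate.

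The next 6 genes, higher in the deeper fit, were chosen after their values were seen. The vacuolar protease gene isp6, induced in sexual differentiation, had levels of 1.02, 1.16 and 0.74 in low phosphate, against 0.10, 0.04 and -0.28 in high phosphate (1.02 ± 0.12, SE, adjusted p = 0.0063, limma). The cyclin gene pas1 rose by 1.04, the mitochondrial import gene tom5 by 0.97 and the plasma membrane organization gene fhn1 by 0.90. Ste11, the master transcription factor of mating, rose by 0.64 with the shallow replicates overlapping (0.26 in low phosphate and 0.22 in high phosphate). The predicted phosphate transporter gene pho841 had levels of 1.05, 1.13 and 0.55 in low phosphate, against 0.37, 0.28 and 0.17 in high phosphate, and rose by 0.76 ± 0.10 (SE, adjusted p = 0.0070, limma). In the 10-library fit none of the 6 passed, with adjusted p between 0.057 and 0.33 (limma).

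**Figure D3:**
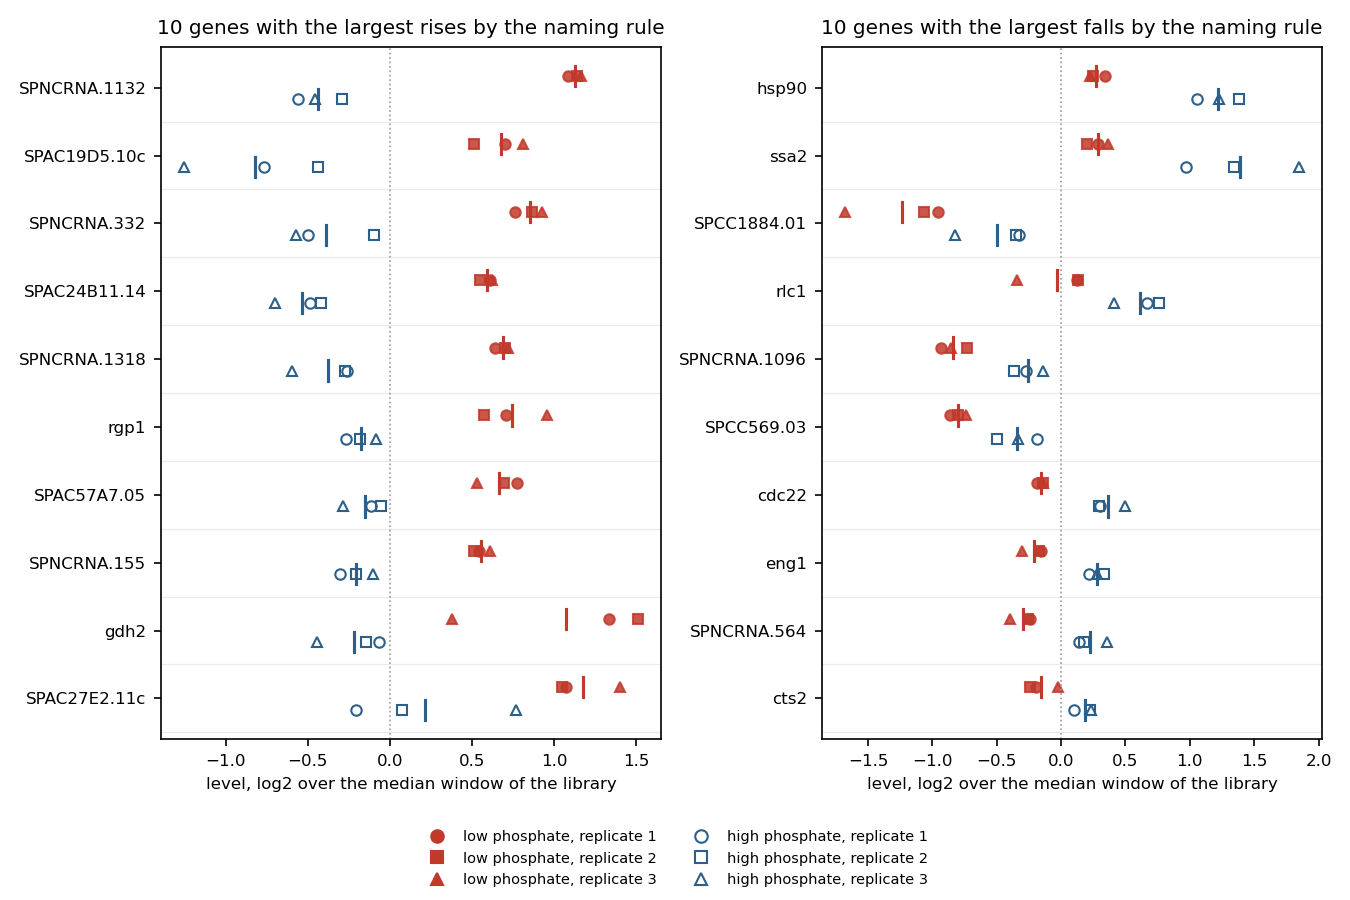
Gene level (log2 over the median window) of the 10 genes with the largest rises (left) and the 10 with the largest falls (right) by the naming rule, low phosphate in red and high phosphate in blue, 1 symbol per replicate and a bar at each group mean. In all 20 the 3 low phosphate libraries lie on 1 side of the 3 high phosphate ones, as the naming rule required. SPNCRNA.1132 and the 7 genes under it passed in the 10-library fit, and the other 12 only in the fit of the deeper libraries.

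Falls were fewer, and the largest were of chaperone genes. Hsp90, the general chaperone of signalling proteins, at I 3888558 to 3891139, had levels of 0.34, 0.25 and 0.22 in low phosphate, against 1.06, 1.38 and 1.22 in high phosphate. All low phosphate values were near the genome median and all high phosphate values were well above it, so that the level fell by 0.92 in the deeper fit (SE 0.17, adjusted p = 0.021, limma), to 0.527 of the high phosphate signal. Over 10 libraries the change was -0.95 (adjusted p = 0.057). Ssa2, an Hsp70 chaperone, had levels of 0.28, 0.20 and 0.37 in low phosphate, against 0.97, 1.34 and 1.85 in high phosphate (-0.92 ± 0.18 in the deeper fit, SE, adjusted p = 0.028, limma). NoIP was also lower in low phosphate in both genes. In the window 1139 bp inside hsp90, NoIP held 0.67 and 0.24 in low phosphate, against 2.48 and 1.86 in high phosphate. At 1157 bp inside ssa2 it held 0.42 and -0.02 in low phosphate, against 2.34 and 1.83 in high phosphate. In Myo1-GFP the signal of both genes changed shape. Upstream of ssa2 the deeper libraries held 1.30 and 1.10 in low phosphate, against 0.12 and 0.48 in high phosphate, a gain of 0.90 in the deeper fit (adjusted p = 0.0026, limma) over windows in which the shallow low phosphate library held -0.87. Upstream of hsp90 the levels were 0.99, 0.58 and 1.14 in low phosphate, against -0.02, 0.51 and 0.30 in high phosphate, a difference that did not pass in the deeper fit (0.54, adjusted p = 0.069, limma) or over 10 libraries (0.64, adjusted p = 0.20, limma).

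Rlc1, the regulatory light chain of myosin II, followed hsp90, whose 3′ end adjoins it, with levels of 0.12, 0.13 and -0.34 in low phosphate, against 0.67, 0.76 and 0.41 in high phosphate. It fell by 0.59 in the deeper fit (SE 0.08, adjusted p = 0.0074, limma). Cdc22, the large subunit of ribonucleotide reductase, had levels of -0.19, -0.14 and -0.14 in low phosphate, against 0.30, 0.29 and 0.49 in high phosphate, and fell by 0.46 in the deeper fit. Eng1, a glucanase that cuts the septum open, had levels of -0.15, -0.17 and -0.31 in low phosphate, against 0.22, 0.33 and 0.28 in high phosphate, and fell by 0.43. The predicted chitinase gene cts2 fell by 0.38. The other falls by the rule were SPCC1884.01 and the antisense RNA SPNCRNA.1096, which overlap each other near the left end of chromosome III, SPCC569.03 and SPNCRNA.564, with changes between -0.67 and -0.41.

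**Figure D4:**
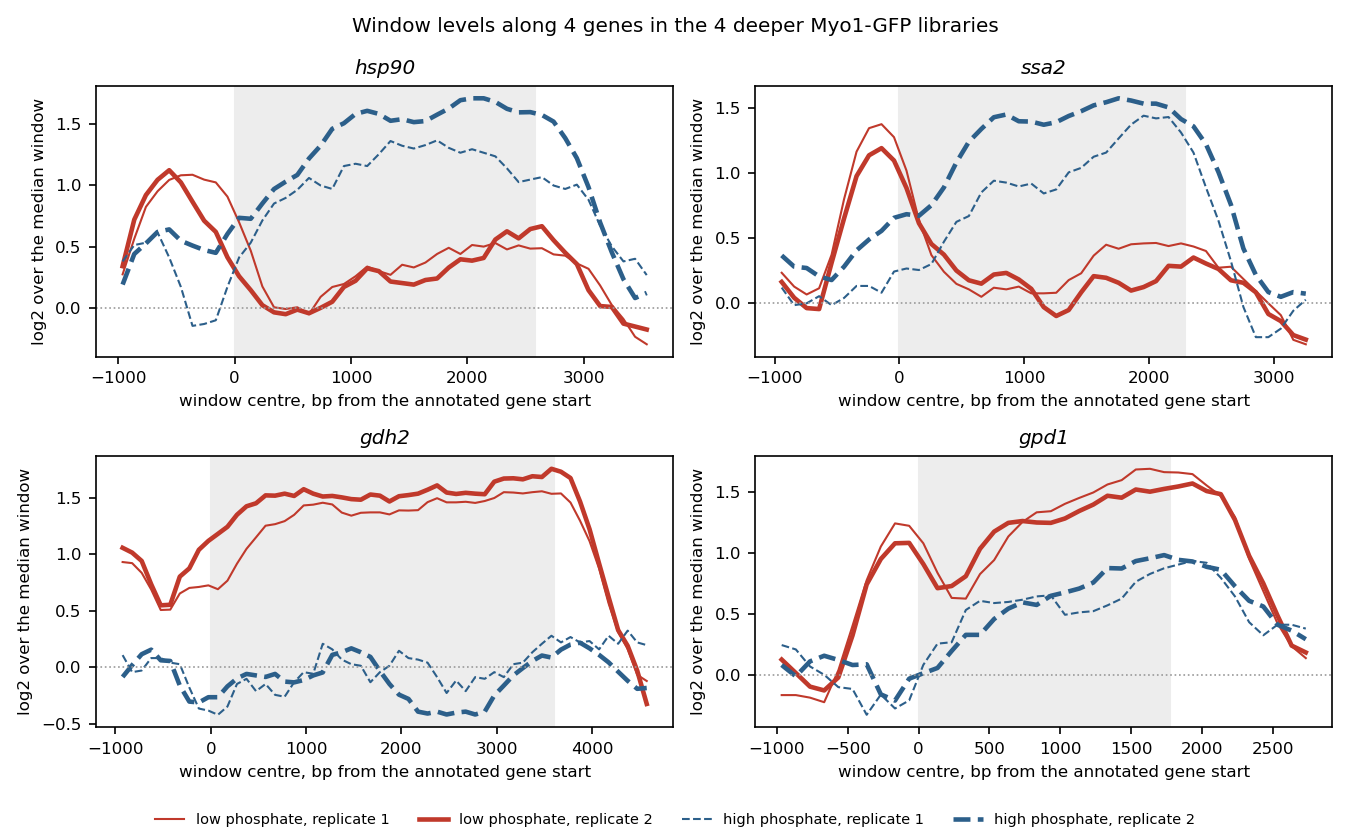
Window level (log2 over the median window) against distance in bp from the annotated start of hsp90, ssa2, gdh2 and gpd1, with the gene shaded. Solid red lines are low phosphate and dashed blue lines high phosphate, thin for replicate 1 and thick for replicate 2, in the 4 deeper Myo1-GFP libraries. In hsp90 and ssa2 both low phosphate lines are above just before the start, overlap or cross the high phosphate lines around it, and are below from 139 bp (hsp90) and 357 bp (ssa2) to the gene end. In gdh2 and gpd1 they are above along the whole gene.

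Nearly all called changes had the same direction in NoIP, where 9 genes were higher (0.148%) and 4 lower (0.0659%) over 10 libraries, and 442 higher (7.28%) and 84 lower (1.38%), 8.66% in either direction, over the 8 deeper ones. The NoIP libraries and their changes were the same in both fits, and only the shared estimate of spread differed. Of the 371 genes called in the deeper fit, 370 changed in the same direction in NoIP, and 273 of the 350 higher and 13 of the 21 lower genes also passed there. Across 6073 genes the low minus high phosphate changes in Myo1-GFP and NoIP had Pearson r = 0.84 in the deeper fit and 0.55 over 10 libraries, as a description across genes measured in libraries processed together. The test of the difference between the 2 changes called 0 genes in either fit (lowest adjusted p = 0.9996 over 10 libraries, with 28 genes at an unadjusted p under 0.05, and 164 in the deeper fit, limma). Without NoIP high phosphate replicate 2 the deeper fit also called 0, with 971 genes at an unadjusted p under 0.05.

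The exception among the 371 was gpd1, glycerol-3-phosphate dehydrogenase, the enzyme that leads to glycerol under osmotic stress. In Myo1-GFP it had levels of 1.29, 1.25 and 1.45 in low phosphate, against 0.60, 0.64 and 0.39 in high phosphate, all 3 replicates in narrow bands. It rose by 0.65 ± 0.14 in the deeper fit (SE, adjusted p = 0.040, limma). In NoIP it held 1.29 and 1.50 in low phosphate, against 1.73 and 1.40 in high phosphate, a difference of -0.17 (adjusted p = 0.51). The difference between the 2 changes had an unadjusted p of 0.0037 in limma and did not pass over all genes (adjusted p = 0.9998). Upstream of gpd1 both kinds of library were higher in low phosphate in the deeper fit, by 1.28 in Myo1-GFP and 1.02 in NoIP. For cdc22, eng1 and cts2 the Myo1-GFP falls of 0.46, 0.43 and 0.38 stood beside NoIP falls of 0.91, 0.97 and 0.93, with unadjusted p of 0.0018, 0.00095 and 0.0015 for the difference and none past adjustment.

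**Figure D5:**
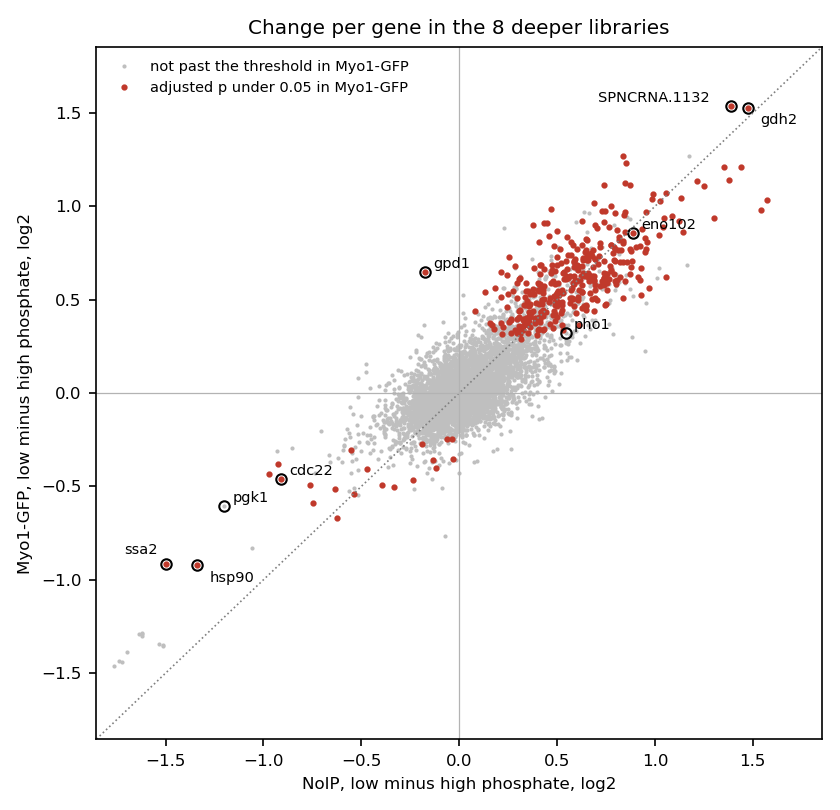
Low minus high phosphate change per gene (log2) in Myo1-GFP against that in NoIP in the 8 deeper libraries, genes called in Myo1-GFP in red and named genes ringed. Points follow the dotted diagonal of equal change, gpd1 lies at 0.65 in Myo1-GFP and -0.17 in NoIP, and ura4, at -5.57 and -5.55, is outside the axes.

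A list of 8 genes of phosphate acquisition, which did not hold pho841, was near the median gene. None of the 8 passed over the gene body in limma in either fit, and their median change in the deeper fit was 0.04, against 0.02 for all genes. The acid phosphatase gene pho1 had levels of 0.80, 0.85 and -0.13 in low phosphate, against 0.51, 0.49 and -0.34 in high phosphate, and the difference of 0.32 in the deeper fit did not pass (adjusted p = 0.21, limma). The transporter gene pho84 had levels of 0.66, 0.80 and -0.00 in low phosphate, against 0.52, 0.48 and 0.75 in high phosphate. For tgp1, aps1, vtc4, asp1, csk1 and pho7 the deeper changes lay between -0.02 and 0.13. Upstream windows of 2 of the 8 passed in the deeper fit, those of pho7 and pho84, which is 25.0% beside 19% of all genes, and for pho84 the shallow low phosphate library held -2.26 where the other two held 0.48 and 0.58.

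Glycolytic genes split between their upstream and body windows. Over the 16 measured, 10 were higher upstream in the deeper fit (62.5% beside 19% of all genes), with a median change of 0.56 beside 0.13. Over the gene body 1 was higher (6.25% beside 5.76%) and 0 were lower, and 7 had all low phosphate libraries below all high phosphate ones (43.8% beside 8.22%). The body gain was in eno102, an enolase gene, with 0.68, 0.68 and 0.34 in low phosphate, against -0.11, -0.24 and -0.59 in high phosphate. Pgk1, phosphoglycerate kinase, had levels of 0.43, 0.38 and 0.81 in low phosphate, against 0.87, 1.16 and 1.35 in high phosphate, a difference of -0.61 that did not pass (adjusted p = 0.089, limma). In NoIP 5 of the 16 passed as lower in the deeper fit, beside 1.38% of all genes.

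Of 118 cytosolic ribosomal protein genes, 51 were higher upstream in the deeper fit (43.2% beside 19%), with a median change of 0.40, and 0 passed over the gene body in limma. Over the body the median change was 0.10 in the deeper fit and -0.03 over 10 libraries. Groups did not overlap in 10 genes, all higher (8.47% beside 9.25% of all genes). In the 10-library fit 2 of the 118 passed upstream, beside 2.25% of all genes. Among 7 translation elongation factor genes 3 were higher upstream (42.9%) and 0 over the body.

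Heat shock and stress genes went both ways over the body. In the deeper fit 2 of 20 were higher, hsp9 and the sulfiredoxin gene srx1 (10% beside 5.76% of all genes). Lower were 3 of the 20, hsp90, ssa2 and mas5, a DnaJ co-chaperone, beside 0.346% of all genes. Upstream, 9 were higher (45.0% beside 19%). Hsp9, a small heat shock protein, had levels of 1.05, 0.96 and 0.56 in low phosphate, against 0.05, 0.12 and -0.13 in high phosphate, a rise of 0.92. For srx1 and mas5 the shallow replicates went against the deeper ones, with srx1 at -0.53 in low phosphate and 0.08 in high phosphate and mas5 at 0.44 in low phosphate and 0.25 in high phosphate.

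Among endocytic and cytoskeletal genes few passed. Of 21 actin patch genes only end4 passed over the body (4.76% beside 5.76%), with a change of 0.36 in the deeper fit and the shallow low phosphate library at -0.13, while 6 passed upstream (28.6% beside 19%). None of 5 myosin heavy chain genes passed over the body in limma, with changes between -0.13 and 0.16. Myo1, the gene that carries the tag, had levels of 0.35, 0.34 and -0.06 in low phosphate, against 0.20, 0.16 and 0.18 in high phosphate. None of 27 autophagy genes passed over the body and 3 passed upstream, 11.1% beside 19% of all. Of 94 meiotic genes 5 were higher and 0 lower over the body (5.32% beside 5.76% of all genes), among them mug106, with 0.50, 0.45 and 0.76 in low phosphate against -0.40, -0.12 and 0.65 in high phosphate, groups that overlapped through the shallow replicates. Of 8 core histone genes, hht3 passed in the deeper fit (0.54), which is 12.5% beside 5.76% of all genes. Its shallow replicates were in reverse order (0.75 in low phosphate and 1.12 in high phosphate).

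A set of amino acid synthesis genes, put together after the values were seen, held 12 higher and 0 lower of 54 in the deeper fit (22.2% beside 5.76% of all), though none passed over 10 libraries. Lys3, saccharopine dehydrogenase of the lysine pathway, had levels of 1.12, 1.43 and 0.74 in low phosphate, against 0.41, 0.42 and 0.28 in high phosphate, and rose by 0.86. Asn1, asparagine synthetase, had 1.27, 1.45 and 0.41 in low phosphate, against 0.51, 0.57 and 0.45 in high phosphate, and rose by 0.82. Ser3, which opens serine synthesis, rose by 0.71 and lys4 by 0.77. NoIP had 8 of the 54 higher, beside 7.28% of all genes, and 0 lower. Of 7 cell separation genes gathered in the same way, eng1 and adg3 were lower in Myo1-GFP, beside 0.346% of all genes, and 6 were lower in NoIP, beside 1.38%. Of 8 G1/S genes of the MBF factor, also gathered after the values were seen, 1 was lower, cdc22.

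By class of gene, tRNA and snRNA genes stood out in the deeper libraries. The mean level of tRNA genes was 1.20, 1.33 and 0.98 in low phosphate, against 0.67, 0.78 and 1.55 in high phosphate. The deeper libraries were thus higher in low phosphate and the shallow pair went the other way. The difference was 0.17 over all 6 libraries, well inside their spread (SD 0.18 in low phosphate and 0.48 in high phosphate), and 0.54 over the 4 deeper ones. In the deeper fit 50 of 166 tRNA genes passed as higher and 0 as lower (30.1% beside 5.76%), with all 166 changes above 0, and in the 10-library fit 0 passed in limma. NoIP held 1.69 and 1.36 in low phosphate, against 1.14 and 0.85 in high phosphate. Of 7 genes labelled snRNA, 4 were higher in the deeper fit (snu3, snu4, snu5 and snu32), 57.1% beside 5.76% of all genes. Over all 6 libraries the groups did not overlap in 2 of the 7, both higher (28.6% beside 9.25% of all genes). In the class mean the shallow pair went the other way (0.64 in low phosphate and 0.75 in high phosphate). The class mean in NoIP was 1.45 and 1.22 in low phosphate, against 0.86 and 0.80 in high phosphate. For snu3, the U3 RNA of ribosomal RNA processing, levels were 1.0, 1.13 and 1.31 in low phosphate, against 0.28, 0.56 and 0.71 in high phosphate. Other non-coding RNA genes, 1094 in number, had 134 higher and 4 lower (12.2% higher), and protein-coding genes 161 higher and 17 lower of 4728 (3.41% higher). Windows of ribosomal RNA genes held 2.55, 2.68 and 3.81 in low phosphate, against 3.61, 3.17 and 4.77 in high phosphate, groups that overlapped. Counted per gene, their median change was 0.22 in the deeper fit, with 32 of 44 above 0, and -0.20 over 10 libraries. In the deeper fit 1 of the 44 passed as higher (2.27% beside 5.76%) and 0 as lower. Repeated genes such as these, and tRNA copies, share reads that the aligner may have placed at any copy.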

How the data were processed

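Myo1-GFP ChIP-seq in fission yeast was analysed from a window table. The deposited signal was made by the authors from reads counted in 200 bp windows every 100 bp and multiplied by a factor per library, whose definition is not given in the sources used here. The submitters' processing notes name ASM294v2, Trim Galore 0.3.8 and Bowtie2 2.2.4. Duplicate removal and mapping filters are not given in the sources used here. Depth rests on taking the smallest increment of a library as a single read, which gives a median window a counting SD between 5.67% and 35.4%. Reads amplified from 1 molecule are not independent, so this covers counting error only. The values are scaled signal, so no count model was used.

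Of 126317 windows, 125712 on I, II and III above 0 in at least 2 libraries were kept, and 11753 of these carried no gene label. The signal was taken as log2(value + 1), minus the median window of the library, and averaged per gene label. Empty windows of the shallow libraries are sensitive to the pseudocount. limma 3.58.1 in R 4.3.3 was fitted with 1 mean per group and an eBayes trend (two-sided, called at a Benjamini-Hochberg adjusted p of 0.05) to all 10 libraries and to the 8 deeper ones. All groups of a fit shared 1 estimate of spread per gene. Counts in NoIP therefore also depend on which Myo1-GFP libraries are in the fit, and the reverse. Gene starts came from the ASM294v3 RefSeq annotation, whose chromosomes I to III have the lengths of the table, where 99.0% of gene labels matched and 95.7% of labelled windows overlapped the annotated gene. The window whose centre was nearest to each position was used, on either strand. Levels by class and position were compared over samples. Members and lists were chosen with earlier results of these data known. The naming rule took up to 10 rises and 10 falls that passed over 10 libraries without overlap of the 6 Myo1-GFP libraries, filled from the deeper fit, plus up to 4 genes per list and all phosphate and myosin genes, and other genes were named after their values were seen.

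Whether equal replicate numbers pair libraries was checked on deviations from group means across genes. Same-numbered pairs correlated at 0.13, 0.17 and 0.16 in Myo1-GFP and 0.50 in NoIP, so a block was fitted as an alternative. Low phosphate replicate 1 correlated more with high phosphate replicate 2 (0.20), and replicate 3 was shallow in both conditions. Other alternatives were pseudocount, centring, filters, GC correction, library weights and leaving out each library. The script was tested on simulated data. Scripts ran in Python 3.11.15, using pandas 2.3.3, numpy 2.4.6, scipy 1.17.1 and, for figures, matplotlib 3.10.9.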

Additional observations from a re-analysis of the deposited data

Results flagged for a closer look

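Mitochondrial windows, which no comparison of genes used, held a mean log2 level of 3.53 over the median window in high phosphate Myo1-GFP libraries (3.13, 2.47 and 5.0), above the 2.30 and 1.72 of the high phosphate NoIP libraries. In low phosphate the Myo1-GFP libraries held 1.70, 2.09 and 5.53, against 2.39 and 1.67 in NoIP. Both shallow Myo1-GFP libraries were the highest of their group. The part of depth in this was not tested.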

How the results depend on the processing

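The count of 8 genes called in Myo1-GFP over 10 libraries was 1 without centring, 1 with the 6 Myo1-GFP libraries alone, 1 at an adjusted p under 0.01, 15 with GC correction (13 higher, 2 lower), 39 with quantile normalization (36 and 3) and 863 with library weights (727 and 136). It was 0 with the replicate block and 0 with the block and GC correction together. Over the 8 deeper libraries it was 371, or 372 with a pseudocount of 1000, 431 with GC correction, 308 with quantile normalization and 598 with the replicate block, and 604 over the 4 deeper Myo1-GFP libraries alone. Leaving out 1 library gave 1 to 88 over 10 libraries. In the deeper fit it gave 0 without Myo1-GFP high phosphate replicate 1 and without low phosphate replicate 2, 2 without low phosphate replicate 1, 309 without high phosphate replicate 2, 333 and 331 without NoIP low phosphate replicates 1 and 2, and 583 and 589 without NoIP high phosphate replicates 1 and 2. In NoIP the count of 13 was 21 from log2 of the mean window signal, 0 without centring, 25 with quantile normalization, 322 with library weights, 526 over the 8 deeper libraries, 0 with the replicate block, 0 with the block and GC correction, 0 at an adjusted p under 0.01, and 0 to 77 leaving out 1 library. The upstream count of 106 was 902 over the 8 deeper libraries and 0 with the replicate block, with 9 to 375 leaving out 1 library and in the deeper fit 470 and 499 without low phosphate replicates 1 and 2, 446 and 1129 without high phosphate replicates 1 and 2, 774 and 776 without NoIP low phosphate replicates 1 and 2, and 1179 without either NoIP high phosphate replicate. With each window taken at or below its position in chromosome coordinates, in place of the nearest one, the counts were 106, of which 90 were shared, and 917 over the 8 deeper libraries. The test of the difference from NoIP over gene bodies called 0 under every setting run. Without centring the class differences were 0.14 for windows without a gene label, 0.16 for other non-coding RNA and 0.049 for protein-coding genes, and tRNA was 0.54 over the deeper libraries. The difference of upstream minus inside levels stayed between 0.19 and 0.30 leaving out 1 library, and with the replicate block it was 0.23. Of 1554 values for 65 named genes, 1402 stayed on their side of the threshold, 85 lost the call, 67 gained it, 0 reversed a call, and 56 in 19 genes changed sign without one. Causes were not tested, beyond fewer or shallower libraries. Alternatives over the deeper libraries and the upstream measure were chosen after seeing the data, and library weights come from an estimate that stopped early. Replicate 3 limits small changes, since counting error alone gives its median window an SD of 30.2% in low and 35.4% in high phosphate.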
